A study of Mus musculus with 5 samples.

Results

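The adrenomedullin and apelin systems are a pair of peptide signals that relax blood vessels. Transcripts of 7 genes of these systems, found by their symbols in the count and TPM tables, were described out of 49315 genes in the tables: Adm, Calcrl, Ramp1, Ramp2, Ramp3, Apln and Aplnr. The data are poly(A) RNA-seq of cells isolated from mouse lung as endothelial cells. The WT group held 3 libraries (wild-type mice) and the TET2KO group held 2, from mice whose endothelial cells lack TET2, an enzyme that oxidises methylated cytosine in DNA. All mice, WT included, had received angiotensin II, a vasoconstrictor hormone, by infusion for 28 days, and no uninfused group was part of the comparison. The age and strain of the mice, the promoter that drove the knockout, the way endothelial cells were isolated and whether libraries stand for separate animals are not given in the sources used here. P-values therefore measure library-to-library spread only, which may be technical in part.

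Adrenomedullin is a secreted peptide that dilates vessels and tightens the endothelial barrier. Its receptor is the calcitonin receptor-like receptor, which Calcrl encodes and which needs a receptor activity-modifying protein (RAMP) to reach the cell surface. With RAMP2 or RAMP3 it binds adrenomedullin, and with RAMP1 it forms the receptor of calcitonin gene-related peptide (CGRP). Apelin, encoded by Apln, acts on the receptor encoded by Aplnr, lowers vascular tone and opposes angiotensin II. In mouse lung capillaries Apln is known as a gene of aerocytes, the thin capillary cells that face the air, and Aplnr as a gene of general capillary cells.

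Calcrl, Ramp2, Aplnr and Adm were higher in both TET2KO libraries than in all 3 WT libraries, by 1.97, 1.77, 1.68 and 1.74 times in the fit over all genes. Ramp3 and Apln had means above WT with groups that overlapped, and Ramp1 had a mean below WT, also with overlap. No member passed the test: by edgeR's quasi-likelihood test, Benjamini-Hochberg adjusted p values were 0.740 to 0.864 for the 7 genes, and 0% of the 18727 genes tested were called. Groups did not overlap, with TET2KO higher, for 4 of the 7 members, beside 12.4% of all genes tested. For Adm the margin was small, at 2.90 CPM in TET2KO replicate 1 against 2.86 CPM in WT replicate 3. At an unadjusted p under 0.05 by edgeR, 3 members (Ramp2, Calcrl and Aplnr) were higher in TET2KO and 0 were lower, beside 5.32% of all genes higher, 0.539% lower and 5.86% in either direction. Without WT replicate 3 the count was 6 of 7, all but Apln (beside 7.63% of all genes), and without TET2KO replicate 2 it was 0 of 7 (beside 1.45%). With libraries scaled on endothelial marker genes, as described further on, it was also 0 of 7, beside 36.5% of all genes. DESeq2 also called 0 of the 7 members, with 0.395% of genes called. The median log2 fold change of the 7 genes was 0.75, against -0.08 over all genes tested.

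**Figure D1:**
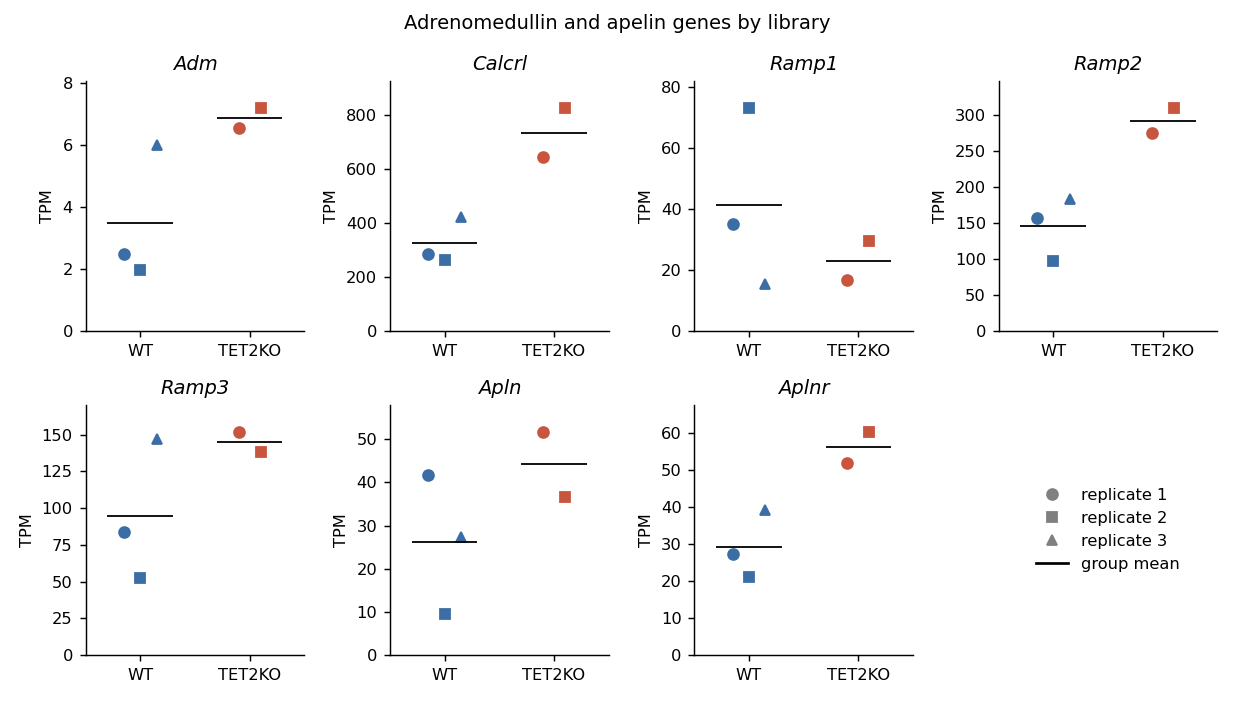
Level of each member in each library, in TPM on a linear axis that starts at 0. Points are libraries, with the replicate given by the symbol, and black lines are group means (n = 3 WT and 2 TET2KO). For Adm, Calcrl, Ramp2 and Aplnr both TET2KO points lie above all 3 WT points, while WT replicate 3 lies close to the TET2KO points for Adm and Ramp3.

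Total counts were 27346804 to 35440257 per library, and Tet2 itself, counted over the whole gene, stood at 131 to 174 CPM in WT and 139 and 162 CPM in TET2KO, which does not check the genotype because the deleted exons are not given. The isolates carried endothelial transcripts throughout: 25 of 25 genes of an endothelial identity list (Pecam1, Cdh5 and others, none of them a member) were counted in every library. WT replicate 2 stood apart, at 90.8 on a first principal component that held 57.5% of the variance, with the other libraries between -50.9 and 7.71. On the second component WT replicates 1 to 3 were at -25.7, -16.6 and -25.6, and the TET2KO libraries at 15.7 and 52.2. The authors' deposited comparison does not follow the labels. Over 18018 genes, the log2 fold changes in the authors' deposited table differed by a median of 0.000149 from the log2 ratio of the mean of WT replicate 3 and both TET2KO libraries over the mean of WT replicates 1 and 2, and by a median of 0.201 from the ratio for the labelled groups. Which grouping of WT replicate 3 is right cannot be told from the files. The groups used here are those of the labels, and fold changes of each member are also given with WT replicate 3 or WT replicate 2 left out.

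All 7 genes are protein-coding and were matched by Ensembl identifier to GENCODE M21 on GRCm38. Calcrl lies at chr2:84330626-84425411 on the minus strand and Aplnr on the same chromosome at chr2:85136225-85139923 on the plus strand. Adm lies at chr7:110627661-110629820, Ramp1 at chr1:91179822-91225196, Ramp2 at chr11:101246028-101259546 and Ramp3 at chr11:6658521-6677475, all on the plus strand. Apln lies at chrX:48025146-48034853 on the minus strand. Since TET2 acts on methylated cytosine, mostly in CpG dinucleotides, the 250 bases before the RefSeq start of a gene are shown for the receptor gene with few CpGs (Calcrl), for the ligand gene Adm, and for the CpG-richest of the 5 members with a window (Ramp3). The GENCODE spans of Calcrl and Ramp3 begin farther upstream than these RefSeq starts, so part of each of those windows lies inside the annotated gene. The sequences are from RefSeq (GRCm38.p6), read 5′ to 3′ on the gene's strand, with CpG dinucleotides in capitals. They cover chr2:84425267-84425516 (minus strand), chr7:110627407-110627656 and chr11:6658283-6658532 (both plus strand).
Calcrl promoter: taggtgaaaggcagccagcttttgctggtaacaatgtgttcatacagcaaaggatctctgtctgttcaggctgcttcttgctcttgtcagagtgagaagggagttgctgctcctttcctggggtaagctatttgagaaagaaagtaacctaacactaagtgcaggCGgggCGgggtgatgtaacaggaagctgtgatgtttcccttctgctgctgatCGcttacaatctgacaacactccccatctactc
Adm promoter: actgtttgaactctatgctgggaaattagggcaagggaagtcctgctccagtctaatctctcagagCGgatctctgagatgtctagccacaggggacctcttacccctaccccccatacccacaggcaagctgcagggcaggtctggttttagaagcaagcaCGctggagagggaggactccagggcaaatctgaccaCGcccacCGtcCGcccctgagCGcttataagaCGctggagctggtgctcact
Ramp3 promoter: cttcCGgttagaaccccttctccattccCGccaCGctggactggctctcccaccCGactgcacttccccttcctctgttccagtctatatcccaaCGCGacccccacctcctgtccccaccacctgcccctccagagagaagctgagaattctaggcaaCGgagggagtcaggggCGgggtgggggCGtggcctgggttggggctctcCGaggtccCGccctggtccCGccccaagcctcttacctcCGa

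These windows show how far the members differ in CpG content. Calcrl had 3 CpGs in its window, Ramp1 had 4, Adm had 7, Apln had 12 and Ramp3 had 13. Among 32851 windows of the same length in the table the median was 6 (quartiles 2 and 16), so 29% of windows had fewer CpGs than Calcrl and 68.5% had fewer than Ramp3. The table matched 5 of the 7 members, without Ramp2 and Aplnr. No methylation was measured, and the counts describe the letters alone. The core of the hypoxia response element (ACGTG or GCGTG, on either strand) occurred 2 times in the Adm window and 2 times in the Ramp3 window, and 0 times in those of Calcrl, Ramp1 and Apln. At least 1 such core was present in 38.6% of all windows, and each holds a CpG. The core bound by ETS factors (AGGAAG or CGGAAG, on either strand), a family with endothelial members, occurred 2 times in Ramp3, 1 time each in Calcrl and Apln, and 0 times in Adm and Ramp1, beside 39.2% of windows with at least 1.

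Per unit of length, Calcrl was the most abundant of the 7 transcripts in every library and Adm the least. Calcrl lay above 97.2% to 99.3% of all genes tested, and Ramp2 was next, above 91% to 97.6%. Adm lay above only 24.2% to 38.7%. The places between them were not fixed. Ramp3 followed Ramp2 in 4 libraries, and in WT replicate 2 Ramp1 took that place. Apln and Aplnr were level in TET2KO replicate 1, at 51.8 and 52.0 TPM. Apln was the higher in WT replicate 1, at 41.8 against 27.3 TPM, and Aplnr in the other libraries, as in WT replicate 2 at 21.2 against 9.47 TPM.

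The ligand Adm was a low-count gene, with 33, 36 and 90 counts in WT replicates 1 to 3 and 96 and 102 counts in the TET2KO libraries. Its level was 2.5, 1.98 and 6.0 TPM in WT and 6.54 and 7.20 TPM in TET2KO. WT replicate 3 was thus near the TET2KO libraries and 2 WT libraries were well below them. The means were 3.49 ± 2.19 TPM in WT (SD, n = 3) and 6.87 ± 0.463 TPM in TET2KO (SD, n = 2). The log2 fold change was 0.80 (SE 0.47; edgeR adjusted p = 0.864). It was 1.39 without WT replicate 3 and 0.61 without WT replicate 2. An annotated antisense gene over Adm, Gm28863, had 0 counts in every library.

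Calcrl, the receptor shared by adrenomedullin and CGRP, was at 288, 263 and 424 TPM in the WT libraries and at 643 and 827 TPM in the TET2KO libraries. The groups did not overlap, and the lower TET2KO library was above the highest WT library. The means were 325 ± 86.5 TPM in WT (SD, n = 3) and 735 ± 130 TPM in TET2KO (SD, n = 2). This was the largest positive log2 fold change of the 7, 0.98 (SE 0.26; edgeR adjusted p = 0.740). The value was 1.17 without WT replicate 3 and 0.98 without WT replicate 2.

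Ramp2 encodes the partner that turns this receptor into the main adrenomedullin receptor of vessels. It was at 157, 97.8 and 184 TPM in WT and at 275 and 310 TPM in TET2KO. Both TET2KO libraries were again above every WT library, and WT replicate 2 was the lowest. The log2 fold change was 0.82 (SE 0.21; edgeR adjusted p = 0.740), 0.999 without WT replicate 3 and 0.72 without WT replicate 2. The annotated span of Vps25 overlaps that of Ramp2 on the same strand over 5840 bases, so reads of the shared part could be assigned to either gene or to none. Vps25 itself had 63 to 83 counts per library and a log2 fold change of -0.07 (SE 0.29).

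Ramp3, the alternative partner for adrenomedullin, was at 83.8, 52.2 and 147 TPM in WT and at 152 and 138 TPM in TET2KO. WT replicate 3 lay between the TET2KO libraries, and the other WT libraries lay below them. The log2 fold change was 0.45 (SE 0.35; edgeR adjusted p = 0.864). Without WT replicate 3 it was 0.89, and without WT replicate 2 it was 0.26. A pseudogene on the opposite strand over the start of Ramp3, Gm11978, had 30 to 52 counts per library.

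Ramp1, the partner that gives the CGRP receptor, had a fold change of the opposite sign. It was at 35.1, 73.3 and 15.5 TPM in WT and at 16.7 and 29.6 TPM in TET2KO. The groups overlapped, with WT replicate 2 far above the other libraries and WT replicate 3 the lowest of all. The means were 41.3 ± 29.4 TPM (SD, n = 3) and 23.2 ± 9.13 TPM (SD, n = 2), and the log2 fold change was -1.16 (SE 0.77; edgeR adjusted p = 0.864). Without WT replicate 2 it was -0.17 (SE 0.43), and without WT replicate 3 it was -1.55 (SE 0.58). CGRP itself, encoded by Calca, was a low transcript, with a WT mean of 1.32 ± 0.722 CPM (SD, n = 3) and a TET2KO mean of 1.49 ± 0.549 CPM (SD, n = 2).

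Within a cell, the RAMPs present set which peptide receptors Calcrl can form. Each RAMP was taken as a share of the summed TPM of the 3 in a library. These are shares of RNA over all cells of an isolate, so they do not give the receptors formed. Ramp2 held the largest share in every library: 56.9%, 43.8% and 53.0% in WT and 61.9% and 64.9% in TET2KO. The TET2KO shares lay above all WT shares, by 12.2 percentage points on average (exact permutation test, two-sided, p = 0.2). Ramp1 held 12.7%, 32.8% and 4.48% in WT and 3.76% and 6.20% in TET2KO (exact permutation p = 0.4), so the large share was that of WT replicate 2. Ramp3 held 30.4%, 23.4% and 42.5% in WT and 34.3% and 28.9% in TET2KO, a difference of -0.482 percentage points (exact permutation p = 1). With 3 libraries against 2 the smallest p this test can give is 0.1, and over the 13 shares and ratios tested the adjusted p was 0.929 or 1. Within libraries, the log2 ratio of Ramp2 to Calcrl TPM was -0.88, -1.43 and -1.21 in WT and -1.23 and -1.42 in TET2KO, and the groups overlapped (exact permutation p = 0.5).

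**Figure D2:**
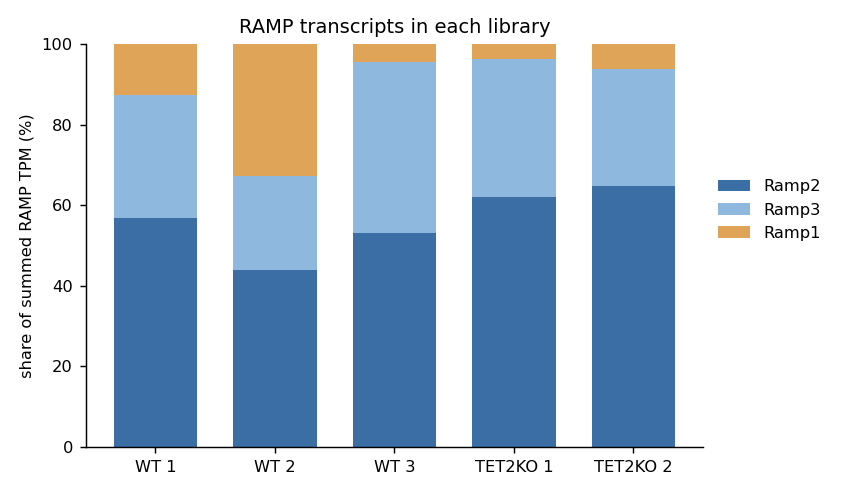
Share of Ramp1, Ramp2 and Ramp3 in their summed TPM (percent, vertical axis) in each of the 5 libraries. Each bar is 1 library and adds to the whole. Ramp2 is the largest share in every bar, and Ramp1 is largest in WT replicate 2, at 32.8%, and at most 12.7% in the other libraries.

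In the apelin system, the ligand Apln was at 41.8, 9.47 and 27.4 TPM in WT and at 51.8 and 36.5 TPM in TET2KO. The groups overlapped, with WT replicate 1 between the TET2KO libraries and WT replicate 2 lowest. The log2 fold change was 0.62 (SE 0.49; edgeR adjusted p = 0.864), and it became 1.05, 0.30 and 0.68 on leaving out WT replicates 1, 2 and 3 in turn. The receptor Aplnr was at 27.3, 21.2 and 39.4 TPM in WT and at 52.0 and 60.5 TPM in TET2KO, with no overlap. Its means were 29.3 ± 9.24 TPM (SD, n = 3) and 56.2 ± 6.04 TPM (SD, n = 2). The log2 fold change was 0.75 (SE 0.23; edgeR adjusted p = 0.744), 0.99 without WT replicate 3 and 0.69 without WT replicate 2. The log2 ratio of ligand to receptor within libraries ran from -1.16 to 0.62 in WT and was -0.00 and -0.73 in TET2KO. Its mean difference was -0.01 (exact permutation p = 1).

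The endothelial identity list was highest in the same libraries as most of the members. Its 25 genes summed to 4008 to 7854 CPM (of library totals) in WT and to 10560 and 10420 CPM in TET2KO. Both TET2KO libraries were above all WT libraries for 23 of the 25 genes, with 12.4% for all genes, and the median log2 fold change over the list was 0.75, as was that of the members. In bulk samples like these, fewer cells of a type and less RNA per cell cannot be told apart. When libraries were scaled on this list in place of all genes, the log2 fold changes were 0.12 (SE 0.40) for Adm, 0.22 (SE 0.30) for Calcrl, 0.07 (SE 0.26) for Ramp2 and 0.01 (SE 0.27) for Aplnr. Under that scaling Ramp3 was at -0.24 (SE 0.29) and Apln at -0.12 (SE 0.48), the reverse of their sign above, and Ramp1 was at -2.11 (SE 0.90). That scaling moved the median of all genes from -0.08 to -0.85. Set against the mean log2 TPM of the list within each library, Aplnr was at -2.01, -1.74 and -1.88 in WT and at -1.97 and -1.77 in TET2KO (exact permutation p = 0.9). Ramp2 was at 0.51, 0.46 and 0.34 in WT and at 0.43 and 0.59 in TET2KO on the same measure (exact permutation p = 0.5). The groups overlapped on this measure for Aplnr and Ramp2, and also for each of the other members.

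**Figure D3:**
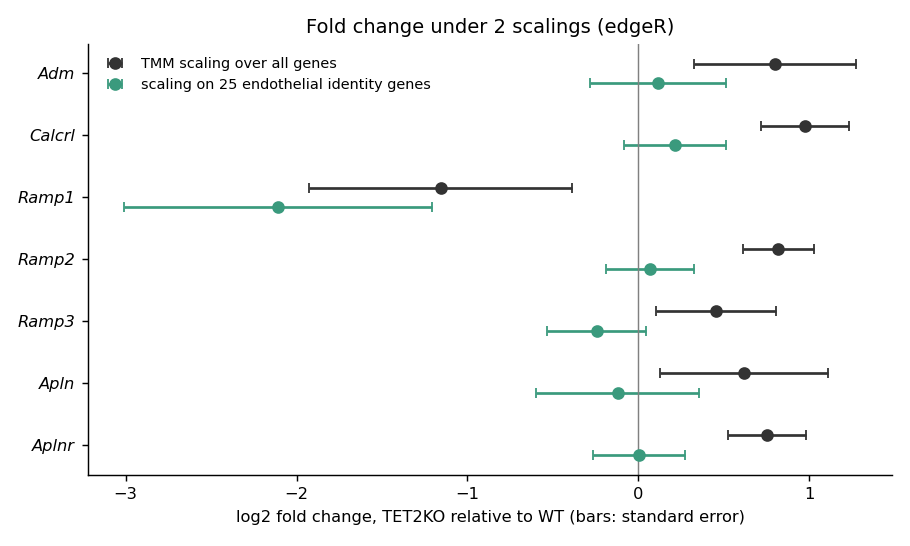
Log2 fold change of each member, TET2KO relative to WT (horizontal axis), from edgeR with TMM scaling over all genes (black) and with scaling on the 25 endothelial identity genes (green). Bars are standard errors. With the endothelial scaling 6 of the 7 values lie between -0.24 and 0.22, and Ramp1 lies at -2.11.

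Markers of other cells were read on the same libraries. All 11 macrophage markers in the table were counted in every library, and none had a log2 fold change above 0. They summed to 10900, 33650 and 3709 CPM in WT replicates 1 to 3 and to 5626 and 10470 CPM in TET2KO. On the same scale Ramp1 reached 31.6, 70.2 and 14.0 CPM in the WT libraries and 14.6 and 26.1 CPM in the TET2KO libraries, so the order of the 5 libraries was the same for Ramp1 and for the macrophage sum. The part of macrophage transcripts in the Ramp1 values was not tested. The 10 aerocyte markers, all counted in every library, summed to 1081, 676 and 910 CPM in WT and to 1527 and 1541 CPM in TET2KO. Apln, with 39.3, 9.45 and 25.8 CPM in the WT libraries and 47.3 and 33.5 CPM in the TET2KO libraries, was lowest, like that sum, in WT replicate 2, as were all other members but Ramp1. The 10 general capillary markers, Kit among them, summed to 2248, 3849 and 2366 CPM in WT and to 3240 and 3860 CPM in TET2KO. The groups overlapped on this sum. Of these 10, 8 had a log2 fold change above 0 (median 0.77), beside 41.6% of all genes. Lpl (-0.88) and Hilpda (-0.08) were below 0, and Lpl alone reached 2276 CPM in WT replicate 2. Among lymphatic markers Ccl21a had 0 counts in every library. The 6 genes of that list summed to 219 to 343 CPM in WT and to 507.5 and 549 CPM in TET2KO. Non-endothelial lists also held genes with higher TET2KO means. Among all genes tested, 41.6% had a log2 fold change above 0. Alveolar epithelium had 9 of 10 genes above 0 (median 0.78, summed 444 to 965 CPM in WT, 937 and 1297 in TET2KO), with none at 0 counts in any library. Mesothelium had 5 of 6 above 0 (median 1.64, summed 56.4 to 354.5 CPM in WT, 93.3 and 250.5 in TET2KO), and fibroblasts had 9 of 10 above 0 (median 0.60, summed 64.5 to 160 CPM in WT, 169 and 170 in TET2KO), with none at 0 in either list. Most of the mesothelium sum was Krt19, at 47.6 to 347 CPM in WT and 64.8 and 209 CPM in TET2KO. Krt19 was the gene of the mesothelium list with a log2 fold change below 0 (-0.66). T, NK and B cell markers had 3 of 10 above 0 (median -0.16). They summed to 851 to 4072 CPM in WT and to 2954 and 1873 CPM in TET2KO. Of 6 tested neutrophil markers, 3 were above 0 (median -0.03). The neutrophil list summed to 86.9 to 227 CPM in WT and to 165 and 153 CPM in TET2KO. Of 8 tested pericyte and smooth muscle markers, 7 were above 0 (median 0.44). The part of these cells in the members' values was not tested.

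**Figure D4:**
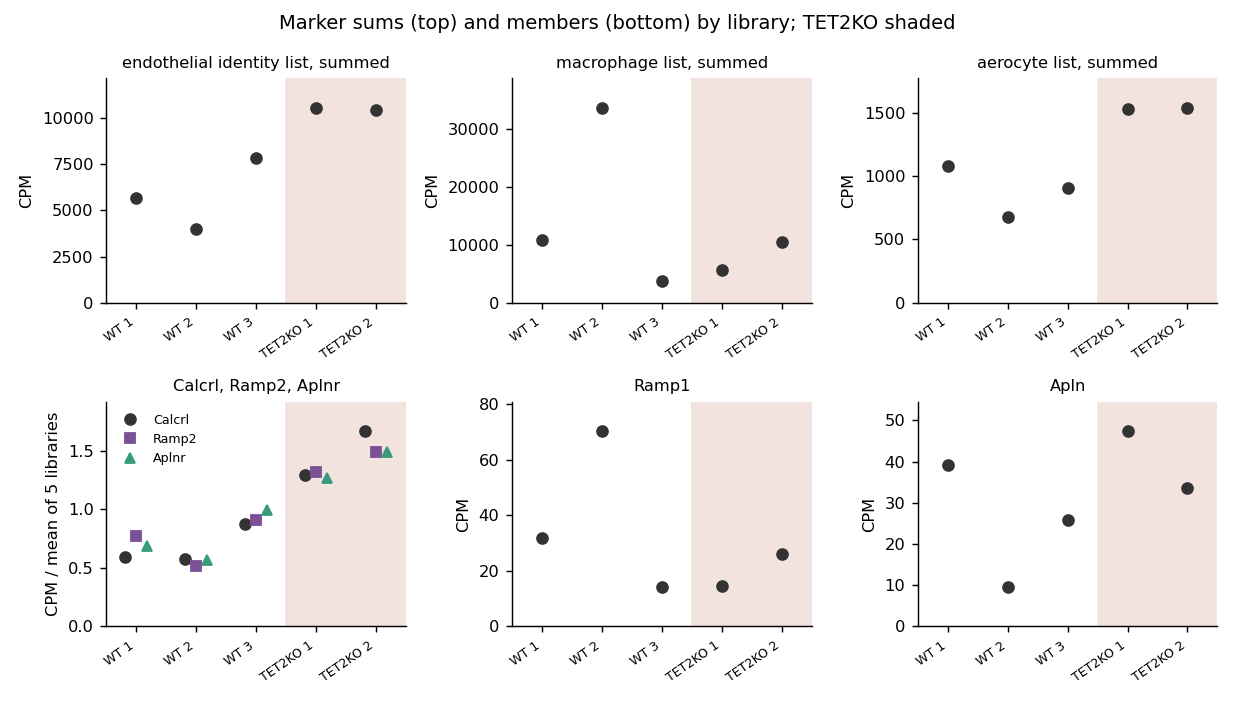
Summed CPM of 3 marker lists (top row) and the CPM of members (bottom row; Calcrl, Ramp2 and Aplnr each divided by its mean over the libraries) in the 5 libraries, with TET2KO shaded. Points are single libraries. The endothelial sum is highest in both TET2KO libraries, as are Calcrl, Ramp2 and Aplnr, and the macrophage sum and Ramp1 are both highest in WT replicate 2.

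Genes whose profile over the 5 libraries was nearest to that of each member were taken by the root mean square difference of centred log2 CPM, among 13344 genes. For Calcrl they were Kit, the stem cell factor receptor of general capillary cells, at 0.03, and Clec1a and Fmo2, both at 0.06, beside a median of 0.62 for all genes. For Ramp2 they were Reep1, Serpinh1 and Farp1 (0.03 to 0.04, median 0.54), and for Aplnr they were Arhgef5, the tight junction gene Tjp1 and Eogt (0.03 to 0.04, median 0.52). For Adm they were Osmr, the oncostatin M receptor, Palmd and Arhgef26 (0.09 to 0.12, median 0.69). For Ramp3 they were Zswim5, Gm12758 and Aspa (0.04 to 0.06). For Apln they were Ncam1, Egflam and Svep1 (0.07 to 0.10), and for Ramp1 they were Ak8, the cholesterol exporter gene Abcg1 and Unc119 (0.04 to 0.08, median 0.96). Among the members themselves Aplnr was nearest to Ramp2 (0.12) and to Calcrl (0.14), and Ramp1 was 1.28 to 1.56 from every other member.

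Adm, Ramp1 and Ramp3, 3 of the 7 members, had in the authors' deposited table an adjusted p under 0.05, beside 2.16% of the genes with one. For Ramp3 the authors' deposited table gave a log2 fold change of 0.92 (adjusted p = 0.00658), where the authors' normalised counts gave 0.47 for the labelled groups. For Adm the authors' deposited table gave 1.35 (adjusted p = 0.0212), against 0.82 for the labelled groups. For Ramp1 the authors' deposited table gave -1.70 (adjusted p = 0.0407), against -1.13. For Calcrl, Ramp2 and Aplnr the values were 0.97, 0.82 and 0.85 in the authors' deposited table and 0.99, 0.84 and 0.77 for the labelled groups, so these differed little between the groupings. Their adjusted p values in the authors' deposited table were 0.0858, 0.101 and 0.0514. For Apln the log2 fold change was 0.49 in the authors' deposited table (adjusted p = 0.698) and 0.64 for the labelled groups. The members with an adjusted p under 0.05 in the authors' deposited table are not the members whose labelled groups were apart, with Adm as the exception. Aplnr was only just above that threshold, so the difference between these sets depends in part on where it is set.

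**Figure D5:**
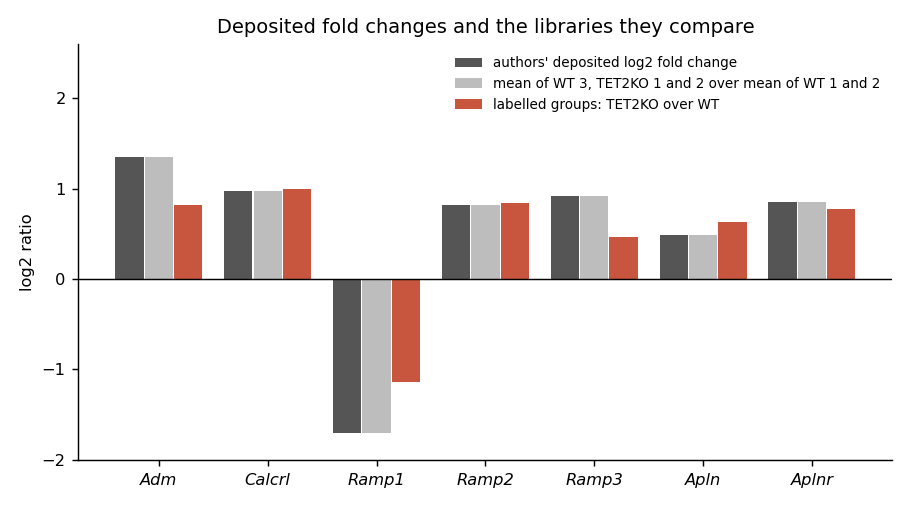
Log2 fold change of each member in the authors' deposited table (dark grey), the log2 ratio of the means of the deposited normalised counts for WT replicate 3 and both TET2KO libraries over WT replicates 1 and 2 (light grey), and the same ratio for the labelled groups (red). The dark and light grey bars coincide for all 7 members, and the red bars are shorter for Adm (0.82), Ramp1 (-1.13), Ramp3 (0.47) and, by less, Aplnr (0.77).

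Other genes of these pathways were read from 6 lists. None of the 52 tested genes passed the adjusted threshold of edgeR. Of the 52, 32 had a log2 fold change above 0, beside 41.6% of all genes, and 14 were higher in TET2KO with no overlap, beside 12.4%. With libraries scaled on the endothelial identity list, 8 of the 52 were above 0, beside 8.36% of all genes. Among other ligands, 4 of 5 genes had too few counts to be tested, with Apela, the second ligand of the apelin receptor, and Iapp at 0 counts in every library, and Adm2 and Calcb at 0 to 7 counts. Among other receptors, Gpr182, once described as an adrenomedullin receptor, had a WT mean of 22.9 ± 4.14 CPM (SD, n = 3) and a TET2KO mean of 37.7 ± 6.40 CPM (SD, n = 2), with a log2 fold change of 0.72 (SE 0.22). Ackr3, a scavenger of adrenomedullin, was at 41.4 ± 15.6 and 51.9 ± 2.69 CPM (SD), and the groups overlapped. Crcp, the CGRP receptor component, had a log2 fold change of -0.25 (SE 0.21). Calcr, the calcitonin receptor, had 0 to 3 counts per library.

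Genes that make and break down the peptides had a median log2 fold change of 0.63, with 8 of 11 above 0, beside 41.6% of all genes. Pam, the enzyme that amidates adrenomedullin, had a WT mean of 64.8 ± 12.5 CPM (SD, n = 3) and a TET2KO mean of 105 ± 4.01 CPM (SD, n = 2). Ece1, endothelin-converting enzyme, was at 337 ± 80.8 and 558 ± 7.58 CPM. Pcsk6, a proprotein convertase, was apart with a log2 fold change of 0.51 (SE 0.23).

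Genes of receptor coupling and cyclic AMP, the second messenger of the adrenomedullin receptor, had a median of -0.08 with 8 of 18 above 0, close to the value for all genes. Within the list, the adenylyl cyclases Adcy6 and Adcy4 were apart between the groups, with WT means of 31.2 ± 6.11 and 137 ± 44.2 CPM (SD, n = 3) and TET2KO means of 52.6 ± 1.13 and 241.5 ± 25.2 CPM (SD, n = 2). Adcy9 was apart as well, with a log2 fold change of 0.33 (SE 0.22). Adcy3, the remaining adenylyl cyclase of the list, had the opposite sign at -0.77 (SE 0.58), and its groups overlapped. Rapgef3, the cyclic AMP sensor EPAC1, overlapped at 0.86 (SE 0.48). Gnas, the stimulatory G protein subunit, had a log2 fold change of -0.12 (SE 0.18).

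Among hypoxia genes, whose programme includes Adm and Apln, 5 of 10 were above 0, beside 41.6% of all genes, and the median was 0.03. Vegfa, the vascular endothelial growth factor, had a WT mean of 206 ± 66.0 CPM (SD, n = 3) and a TET2KO mean of 407 ± 12.1 CPM (SD, n = 2), and Epas1, which encodes HIF-2alpha and is abundant in endothelium, was at 1412 ± 225 and 2575 ± 118 CPM. Slc2a1, a glucose transporter, was the 1 gene of the list with both TET2KO libraries below all WT libraries in TMM-scaled CPM (its TPM values overlapped), with means of 87.1 ± 7.73 (WT) and 69.1 ± 14.2 CPM (TET2KO). Car9, a carbonic anhydrase, overlapped at a log2 fold change of -1.06 (SE 0.77). Genes of lymphatic endothelium and of tip cells, where Calcrl, Ramp2 and Apln act, had a median of 0.54. Of the 9 tested, 8 were above 0, beside 41.6% of all genes. Lyve1, a hyaluronan receptor, had a log2 fold change of 0.83 (SE 0.18) and Dll4, a Notch ligand, 0.82 (SE 0.22). Flt4, a VEGF receptor of lymphatic vessels, had 0.59 (SE 0.24), and Esm1, a tip cell gene, had 0.54 (SE 0.25).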

How the data were processed

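RNA was measured in 3 WT and 2 TET2KO libraries, and groups were taken from the labels. The submitters' processing notes name GRCm38 as the build and list Trimmomatic 0.36 for trimming, STAR 2.5.2b for alignment, Subread 1.5.2 (featureCounts) for counting, and DESeq2. The strand setting is not given in the sources used here. The authors deposited whole-number counts per gene, TPM values (counts per gene length scaled to the library), and a comparison table that, per the file headers, holds a log2 fold change, a p-value and an adjusted p per gene beside counts divided by a size factor, a normalised signal. The deposited columns for all 5 libraries were matched to the labels by library name.

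Counts were tested with edgeR 4.0.16 in R 4.3.3 (quasi-likelihood F test, TMM scaling, filterByExpr, genotype as the only term), adjusted by Benjamini-Hochberg over 18727 genes at a threshold of 0.05. Log2 fold changes are from this fit of counts, so they need not equal the ratio of TPM means printed beside them. Standard errors were derived as log2 fold change over root F. CPM uses TMM-scaled totals unless library totals are named. Shares and ratios used TPM and a two-sided exact permutation test over the 10 ways to assign the libraries. Depth was 27346804 to 35440257 counts per library, and counting error matters mainly for Adm. DESeq2 1.42.0, limma 3.58.1 (voom, log2(TPM + 1) and log2(TPM + 0.1)), other scalings and filters, each library left out and the replicate number as a block were alternatives. The edgeR and DESeq2 fits were tested on simulated data. The members and lists were chosen with earlier results of these data known. Text names all 7 members, up to 4 genes of each list by smallest p, the 3 nearest profiles with a mean log2 CPM of at least 1, Tet2, and markers a result turns on. Outside that rule, Calcr, Apela, Iapp, Adm2, Calcb, Gnas, Adcy3, Vps25, Gm28863 and Gm11978 were named after their values were seen. Some genes the rule takes are not reported here.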

Additional observations from a re-analysis of the deposited data

How the results depend on the processing

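Over the 7 members together, 112 alternative values stayed above the adjusted threshold and 110 of them kept their direction; Ramp3 (-0.24) and Apln (-0.12) changed sign with the endothelial scaling. Adjusted p values over the alternatives ran from 0.13 to 0.9999. By limma on log2(TPM + 1), log2 fold changes were 0.91 for Adm, 1.2 for Calcrl, -0.60 for Ramp1 and 1.04 for Ramp2. They were 0.74 for Ramp3, 0.93 for Apln and 0.96 for Aplnr, with a median of 0.131 over all genes. Leaving out single libraries gave log2 fold changes of 0.58 to 1.39 for Adm, 0.78 to 1.17 for Calcrl, -1.63 to -0.17 for Ramp1, 0.72 to 0.999 for Ramp2, 0.26 to 0.89 for Ramp3, 0.30 to 1.05 for Apln and 0.64 to 0.99 for Aplnr. The number of genes called was 0 by edgeR and 61 by DESeq2, none a member. Pathway genes above 0 numbered 32 of 52, and 8 with endothelial scaling, where the share of all genes above 0 went from 41.6% to 8.36%; the cause was not tested.

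The labels do not say that a replicate number marks a shared animal or day. Deviations from the group means correlated at 0.22 for replicate 1 and 0.493 for replicate 2. With 2 TET2KO libraries these deviations are equal and opposite in that group, so the correlations cannot show whether replicate numbers pair libraries. With the replicate number as a block, WT replicate 3 had no partner and added nothing to the genotype term, which rested on replicates 1 and 2. In that fit 2982 genes had an unadjusted edgeR p under 0.05, against 1098 without the block. All 7 members were among the 2982, Ramp1 as lower (beside 15.9% of all genes). In either fit 0 genes were called, and adjusted p values of the members with the block were 0.13 to 0.276. The members' log2 fold changes with the block were 1.36 for Adm, 1.14 for Calcrl, -1.46 for Ramp1, 0.97 for Ramp2, 0.87 for Ramp3, 0.85 for Apln and 0.95 for Aplnr.

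Of 98 alternatives for shares and ratios, 14 reversed the sign of a small difference, and the cause was not tested. Leaving out single libraries, the Ramp3 share difference ran from -4.85 to 4.73 percentage points, log2 Adm over Calcrl from -0.24 to 0.22 and log2 Apln over Aplnr from -0.41 to 0.48. Over the endothelial list mean, the range was -0.022 to 0.41 for Adm, -0.010 to 0.15 for Ramp2, -0.34 to 0.42 for Apln and -0.10 to 0.11 for Aplnr. With log2(TPM + 1), Adm over that mean was -0.053 and Aplnr over that mean was -0.0075.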
